A study of Homo sapiens with 2 samples.

Results

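IKZF1, IKZF2, IKZF3, IKZF4, IKZF5, BCL11A and BCL11B are 7 of 19970 protein-coding genes (Y and unplaced contigs left out), and they were taken by name. LDB1 sites were mapped around them in NB4 cells, a human acute promyelocytic leukaemia line that carries the PML::RARA fusion. The cells were untreated, and the assay was CUT&Tag, in which an antibody brings the Tn5 transposase to its target so that the DNA beside it is cut and tagged. The study held 1 library with an LDB1 antibody and 1 with non-specific IgG, with no replicate of either. The LDB1 peak list was used here. The IgG library was not analysed here. A peak was counted for a gene when its midpoint fell inside the gene or at most 10 kb beyond either end, and a wider margin of 50 kb was also used. By this rule 29 of 52765 peaks belonged to the 7 genes, and 50 with the wider margin. The list gives positions and widths only, so depth and binding strength are unknown and no value below has a replicate check. All coordinates are hg38, counted from 1.

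These genes encode zinc finger transcription factors of blood cells. The Ikaros family bind DNA through one group of zinc fingers and pair with each other through another at the far end of the protein. Ikaros (IKZF1) is needed for lymphoid development and also acts in stem and myeloid cells, Helios (IKZF2) and Eos (IKZF4) are known from regulatory T cells, Aiolos (IKZF3) from B cells, and Pegasus (IKZF5) from platelets. BCL11A silences the fetal globin genes in red cell precursors and is needed for B cells, while BCL11B sets and keeps T cell identity. LDB1 is an adaptor that joins GATA, LMO and basic helix-loop-helix factors at enhancers and promoters.

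The listed transcription starts of these genes were read from a RefSeq promoter table (GRCh38.p14), which held 16 starts in 6 of the genes; IKZF3 was not matched. A start lay inside an LDB1 peak at IKZF1 and at BCL11A, 2 of the 16. Over all protein-coding genes 20.1% of 22131 listed starts did, and 23.8% of 15811 genes had such a start. The 250 bases before 5 starts are shown 5′ to 3′ on the strand of the gene, because they set the covered starts beside uncovered ones. Capitals mark the E-box CANNTG (the motif of basic helix-loop-helix factors), GATA, and the GC box GGGCGG, on either strand. CANNTG reads the same on both strands, and in the IKZF1 window a GC box touches an E-box, so their capitals run on. The IKZF1 start at 50304716 (window chr7:50304466-50304715, plus strand) and the BCL11A start at 60550907 (chr2:60550908-60551157, minus strand) lay inside a peak. The outermost BCL11A start at 60553924 (chr2:60553925-60554174, minus strand), the BCL11B start at 99272197 (chr14:99272198-99272447, minus strand) and the outer IKZF2 start at 213152456 (chr2:213152457-213152706, minus strand) did not.
IKZF1 inside a peak: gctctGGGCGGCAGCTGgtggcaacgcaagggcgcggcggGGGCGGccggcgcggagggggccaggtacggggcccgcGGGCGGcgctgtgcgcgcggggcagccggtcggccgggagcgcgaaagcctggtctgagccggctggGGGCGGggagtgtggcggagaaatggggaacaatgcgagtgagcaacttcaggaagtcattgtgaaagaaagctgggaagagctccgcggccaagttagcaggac
BCL11A inside a peak: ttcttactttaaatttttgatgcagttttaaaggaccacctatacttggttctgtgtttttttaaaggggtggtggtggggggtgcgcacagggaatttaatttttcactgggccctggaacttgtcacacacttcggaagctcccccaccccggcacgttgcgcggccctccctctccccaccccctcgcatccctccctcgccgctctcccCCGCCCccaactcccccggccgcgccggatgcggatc
BCL11A outermost start: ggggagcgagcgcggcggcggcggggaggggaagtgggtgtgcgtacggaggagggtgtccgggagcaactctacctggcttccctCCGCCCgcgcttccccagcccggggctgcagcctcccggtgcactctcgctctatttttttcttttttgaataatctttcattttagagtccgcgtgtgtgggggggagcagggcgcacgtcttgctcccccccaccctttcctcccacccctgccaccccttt
BCL11B: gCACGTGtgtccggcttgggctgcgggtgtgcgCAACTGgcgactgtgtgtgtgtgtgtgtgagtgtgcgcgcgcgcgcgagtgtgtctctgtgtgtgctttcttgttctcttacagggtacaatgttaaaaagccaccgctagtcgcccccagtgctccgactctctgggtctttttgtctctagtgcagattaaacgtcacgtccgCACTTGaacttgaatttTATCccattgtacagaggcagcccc
IKZF2: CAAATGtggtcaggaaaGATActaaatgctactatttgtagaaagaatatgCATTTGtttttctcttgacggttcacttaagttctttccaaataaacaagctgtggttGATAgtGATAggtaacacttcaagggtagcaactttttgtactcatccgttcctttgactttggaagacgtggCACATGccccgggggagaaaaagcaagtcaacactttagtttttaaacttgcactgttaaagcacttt

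The IKZF1 window inside a peak held 1 E-box, 4 GC boxes and no GATA, and the BCL11A window inside a peak held 1 GC box and neither of the others. Of the 3 uncovered windows shown, those of IKZF2 and BCL11B held more E-box and GATA matches, and that of BCL11A held neither, with 1 GC box. The IKZF2 window had 3 E-boxes and 3 GATA matches, with no peak near it, and the BCL11B window had 3 E-boxes and 1 GATA. The window of the other listed IKZF2 start, at 213150437, held no E-box, GATA or GC box. Over the uncovered windows not shown, E-boxes ran from none to 4 (BCL11A, 60528535). GATA matches ran from none, in most of them, to 5 (IKZF1, 50319048). Among the 250-base windows before all 22131 starts, 58.1% held an E-box, 39.8% GATA and 53.7% a GC box. Where the start lay inside a peak (4456 windows) the shares were 53.2%, 29.9% and 70.8%. A match describes the letters only.

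Starts with a GC-poor window were seldom inside a peak. The share inside a peak was 1.87% of the 4537 starts whose 250-base window had up to 49.2% G and C, 13.1% of those from there up to 58.8%, and 26.2% of those up to 65.2%. It was 31.8% from 65.2 to 72.0% and 29.0% above that. GC content was 71.2% before the covered IKZF1 start and 58.4% before the covered BCL11A start. The uncovered BCL11A start at 60553654 had 72.0%, more than either covered start. The uncovered IKZF1 starts at 50308700 and 50319048 were lower, with 45.2 and 32.8%. Both starts of IKZF5, also uncovered, had 62.4 and 68.0%, between the values of the covered starts. The part of base composition in which starts carry a peak was not tested.

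By share, the 7 genes carried peaks about as often as other genes at 10 kb and in the body, and too few genes were counted to show a moderate difference. Peaks were counted for 5 of 7 (71.4%, exact 95% interval 29.0 to 96.3%), and for 70.1% of all protein-coding genes. With the 50 kb margin these were still 5 of 7, against 86.1%. In the gene body alone it was 4 of 7 (57.1%, 18.4 to 90.1%) against 54.5%. At either outer end of the gene (midpoint within 1 kb) it was 1 of 7 (14.3%, 0.361 to 57.9%) against 37.6%, and the gene was IKZF1. The intervals cover counting error over 7 genes only.

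The peaks were spread very unevenly among the 7 genes. BCL11B had 11, IKZF1 had 9, BCL11A had 4, IKZF3 had 3 and IKZF4 had 2, while IKZF2 and IKZF5 had none. IKZF1 and BCL11B together held 20 of the 29 (69.0%). The median was 3 peaks per gene, and 1 over all protein-coding genes. Of all protein-coding genes, 3.6% had at least 11 peaks and 5.7% at least 9, while 23.1% had at least 4, 32.5% at least 3 and 46.9% at least 2. With 1 library none of these counts has a measured spread, and no difference between them was tested. Neighbours in this order, such as 11 and 9 or 4 and 3, cannot be separated.

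**Figure D1:**
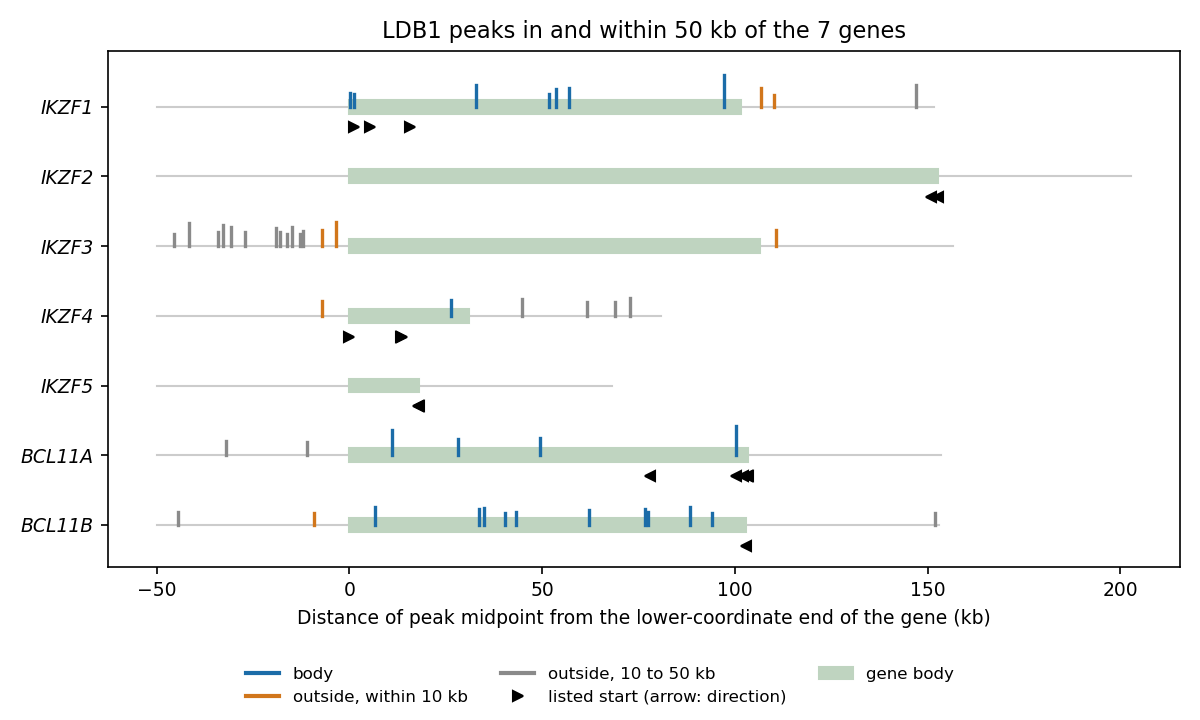
Each row is 1 gene, and the x axis is the distance in kb of a peak midpoint from the end of the gene with the lower coordinate. Vertical bars are peaks, taller for wider ones and coloured by place, green boxes are gene bodies, and arrows are listed starts. The 11 peaks of BCL11B and the 9 of IKZF1 are spread along the genes, IKZF3 is flanked by peaks with none in its body, and the rows of IKZF2 and IKZF5 are empty.

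IKZF1 (gene ID 10320, chromosome 7, 50303455 to 50405101, plus strand) carried peaks at its start, in its middle and around its end. At the start lay a peak of 417 bp (50303426 to 50303842) over the outer end of the gene and one of 374 bp (50304425 to 50304798) over the listed start at 50304716. They were 0.582 kb apart, the smallest gap among the IKZF1 peaks. Both were narrow for this list, since 73.1% and 84.1% of all peaks were at least as wide. The listed starts at 50308700 and 50319048, further into the gene, were 3.90 and 14.2 kb from the edge of that peak.

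Further into IKZF1 lay a peak of 1015 bp (50335776 to 50336790), 32.8 kb from the outer end. A run of peaks of 378, 684 and 802 bp followed between 50355116 and 50360901. The widest was 1652 bp (50399736 to 50401387), 4.54 kb before the far end of the gene, and 4.64% of all peaks were at least as wide. Beyond the gene lay peaks of 752 bp at 5.02 kb and 343 bp at 8.54 kb, in sequence outside any gene body of the table. The wider window added 1 peak of 1000 bp, which lay 45.4 kb beyond the gene and reached across the end of FIGNL1. The wide peaks of IKZF1 were thus away from its start, and those at the start were among its narrowest.

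BCL11A (gene ID 53335, chromosome 2, 60450520 to 60553924, minus strand) had 4 peaks, all inside the gene. The widest was 1526 bp (60549972 to 60551497), and 5.81% of all peaks were at least as wide. It covered the listed start at 60550907 with the whole window printed above. The starts at 60552714, 60553654 and 60553924 lay 1.22, 2.16 and 2.43 kb outside it. Its midpoint was 3.19 kb from the outer end, so BCL11A was not counted among the genes with a peak at an end. The start at 60528535 was 21.4 kb from that peak.

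The other BCL11A peaks lay further into the gene, toward its far end. They were 704 bp (60499727 to 60500430), 611 bp (60478292 to 60478902) and 1265 bp (60460815 to 60462079), at 49.6, 28.1 and 10.9 kb from that end. The gaps between the 4 peaks were 16.2 to 49.5 kb, so each stood alone when peaks up to 10 kb apart were joined. The wider window added peaks of 425 and 487 bp at 10.9 and 32.0 kb beyond the far end, both inside LOC124906010. On the start side the nearest peak was 251 kb away.

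BCL11B (gene ID 64919, chromosome 14, 99169287 to 99272197, minus strand) had the most peaks of the 7 genes, and none of them was wide. The 10 in its body were 356 to 767 bp and the one outside, 9.11 kb beyond the far end, was 353 bp. Their median was 530 bp, where all peaks of the list had a median of 550 bp. The single listed start was uncovered, with the edge of the nearest peak (356 bp, 99263155 to 99263510) 8.69 kb away inside the gene. On the other side of the start the nearest peak was 48.7 kb outside the gene.

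From that peak inward, BCL11B peaks of 767, 410 and 643 bp lay 14.6, 25.4 and 26.3 kb from the start, and one of 530 bp 40.9 kb from it. A set of 4 lay between 99202543 and 99212768, with widths of 609, 704, 358 and 397 bp. All 4 were inside LOC124903412, a long non-coding RNA gene (99197393 to 99214336) that overlaps BCL11B, so they cannot be assigned to one gene by position. The remaining body peak of 716 bp (99175657 to 99176372) was 6.73 kb from the far end. Gaps between BCL11B peaks had a median of 7.68 kb, and the smallest was 0.382 kb.

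IKZF3 (gene ID 22806, chromosome 17, 39757715 to 39864312) had no peak in its 107 kb body, and its 3 counted peaks lay outside. Peaks of 1152 bp (39753760 to 39754911) and 608 bp (39750249 to 39750856) were 3.38 and 7.16 kb from the lower-coordinate end, between IKZF3 and GRB7. The third, of 640 bp (39867986 to 39868625), was 3.99 kb beyond the other end, with its midpoint inside ZPBP2, a sperm protein gene. With the 50 kb window the count went from 3 to 15. Of the 12 added peaks all lay in neighbours on the lower-coordinate side, 5 in ERBB2, 6 in GRB7 and 1 in MIEN1. ERBB2 encodes a growth factor receptor and GRB7 an adaptor that binds it.

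IKZF4 (gene ID 64375, chromosome 12, 56007504 to 56038435, plus strand) had 1 peak in its body and 1 outside. The body peak of 586 bp (56033500 to 56034085) was 4.64 kb from the far end. The other, of 514 bp (56000033 to 56000546), was 7.21 kb before the outermost start and inside SUOX, the sulfite oxidase gene. None of the 3 listed starts was covered, with the nearest peak edges 6.96, 12.6 and 12.5 kb away. The wider window added 4 peaks of 440 to 745 bp beyond the far end, the last of them with its midpoint in ERBB3.

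IKZF2 (gene ID 22807, chromosome 2, 212999698 to 213152456, minus strand) and IKZF5 (gene ID 64376, chromosome 10, 122990806 to 123008795, minus strand) had no peak even within 50 kb, as was the case for 13.9% of protein-coding genes. IKZF2 lay in a stretch of 451 kb without a peak, in which it was the only protein-coding gene. The stretch of IKZF5 was 309 kb and held 7 protein-coding genes, among them its neighbours PSTK and ACADSB. Stretches at least as long were a small part of those between neighbouring peaks, 78 of 4414 on chromosome 2 and 91 of 2226 on chromosome 10. These are counts of stretches and not of genes. The nearest peaks were 166 and 132 kb from the IKZF2 body and 167 and 124 kb from that of IKZF5. Some peaks lay on alternate contigs that were not placed on the chromosomes here, 33 for chromosome 2, 17 for chromosome 10 and 88 for chromosome 17.

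Genes of like length differed widely in their peaks, and the shorter IKZF4 (30.9 kb) and IKZF5 (18.0 kb) had 1 and 0 in the body. IKZF1, IKZF2, IKZF3, BCL11A and BCL11B are 102, 153, 107, 103 and 103 kb long, and they had 7, 0, 0, 4 and 10 peaks in the body. The 1486 protein-coding genes of 100 to 160 kb had a median of 1 body peak (quartiles 0 and 3, highest 46). A body peak was found in 73% of them and in 3 of the 5, and a peak at most 10 kb away in 80.6% and in 4 of the 5. At least 10 body peaks were found in 9.08% of them, at least 7 in 12.7%, at least 4 in 21.8% and none in 27%. BCL11B, IKZF1 and BCL11A were thus above the upper quartile for their length, and IKZF2 and IKZF3 at the bottom.

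**Figure D2:**
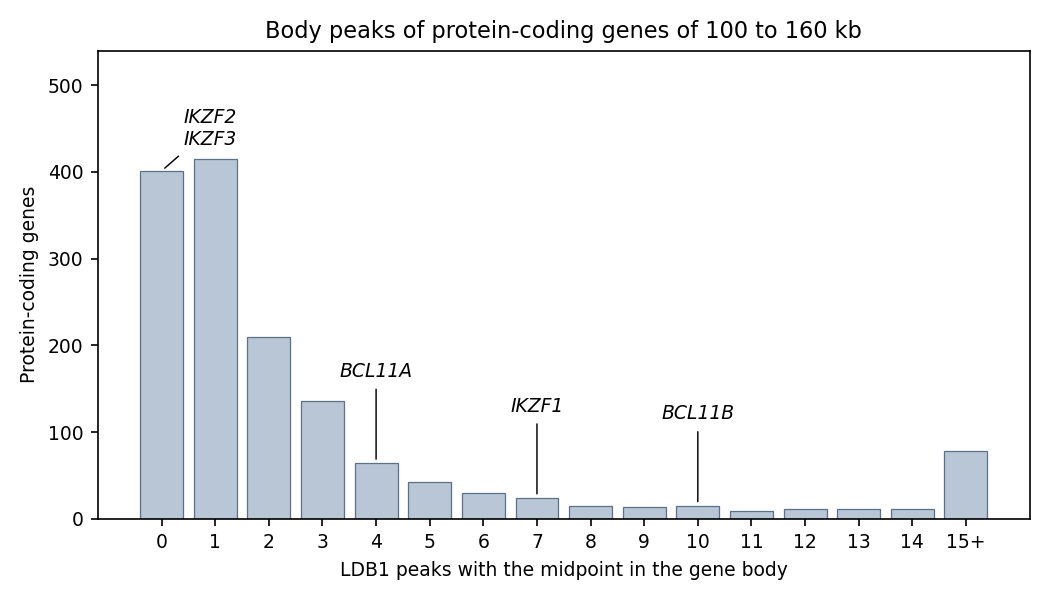
The x axis is the number of LDB1 peaks with the midpoint in the gene body, with 15 or more joined, and the y axis the number of protein-coding genes of 100 to 160 kb, 1486 in all. Names mark the bars that hold the 5 genes of this length, with IKZF2 and IKZF3 among the 401 genes at 0 and BCL11B at 10.

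The neighbourhoods differed as well. In the 500 kb on either side of the gene there were 62 peaks at IKZF3, 40 at BCL11B, 37 at IKZF1, 26 at IKZF4, 10 at BCL11A, 8 at IKZF5 and 6 at IKZF2. Per 100 kb, the body of BCL11B held 9.72 peaks against 4.0 in its flanks, IKZF1 6.89 against 3.7 and BCL11A 3.87 against 1.0. IKZF4, with its single body peak, had 3.23 against 2.6. More peaks per 100 kb in the body than in the flanks were found in 39.7% of the genes of 100 to 160 kb and in 3 of the 5 of that length described here. The median flank of these genes had 1.4 peaks per 100 kb, so BCL11A lay in a sparser region than that, and IKZF1 and BCL11B in denser ones. The part of the region in the counts was not tested.

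IKZF3 was the reverse case, with an empty body in the densest of the 7 neighbourhoods. With the 10 kb margin, peaks were counted for 26 of the 29 other protein-coding genes within 500 kb of IKZF3, beside 70.1% of all protein-coding genes. Neighbouring genes can share a peak, so the 29 are not independent counts. Among genes of 100 to 160 kb, 156 had at least 62 flank peaks, and 16 of these (10.3%) had no body peak. For IKZF2 the flanks were sparse too: 311 genes of this length had at most 6 flank peaks, and 144 of them (46.3%) had no body peak.

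**Figure D3:**
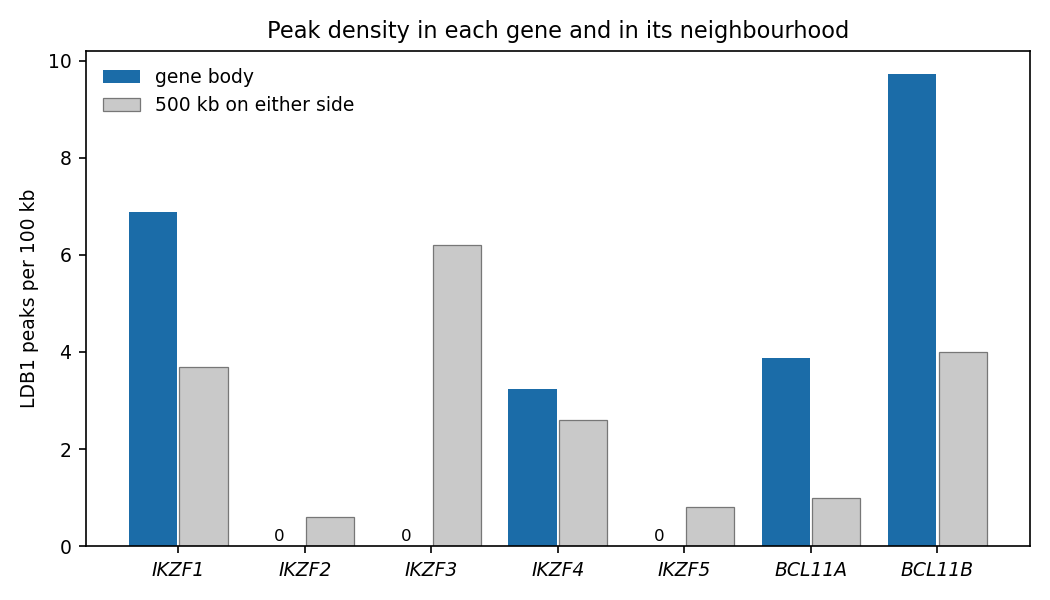
Bars give LDB1 peaks per 100 kb in the gene body (blue) and in the 500 kb on either side of it (grey), for each of the 7 genes. BCL11B, IKZF1 and BCL11A are denser than their flanks (9.72, 6.89 and 3.87 against 4.0, 3.7 and 1.0), and IKZF3 has 0 in the body beside 6.2 in the flanks.

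The widths of the peaks were ordinary for this list. The median was 611 bp for the 29 peaks, with quartiles of 410 and 752 bp and extremes of 343 and 1652 bp. It was 550 bp for all 52765 peaks, with quartiles of 408 and 816 bp. A width of 1 kb or more was reached by 5 of the 29 (17.2%) and by 16.5% of all peaks. Those 5 were at BCL11A and IKZF1, with 2 each, and next to IKZF3, with 1. BCL11B, with the most peaks, had none above 767 bp, and BCL11A, with fewer, had a median of 984 bp. The bases covered were 6417 bp at IKZF1, 5843 bp at BCL11B and 4106 bp at BCL11A, closer together than the counts of 9, 11 and 4. Width was not used as a measure of binding strength.

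**Figure D4:**
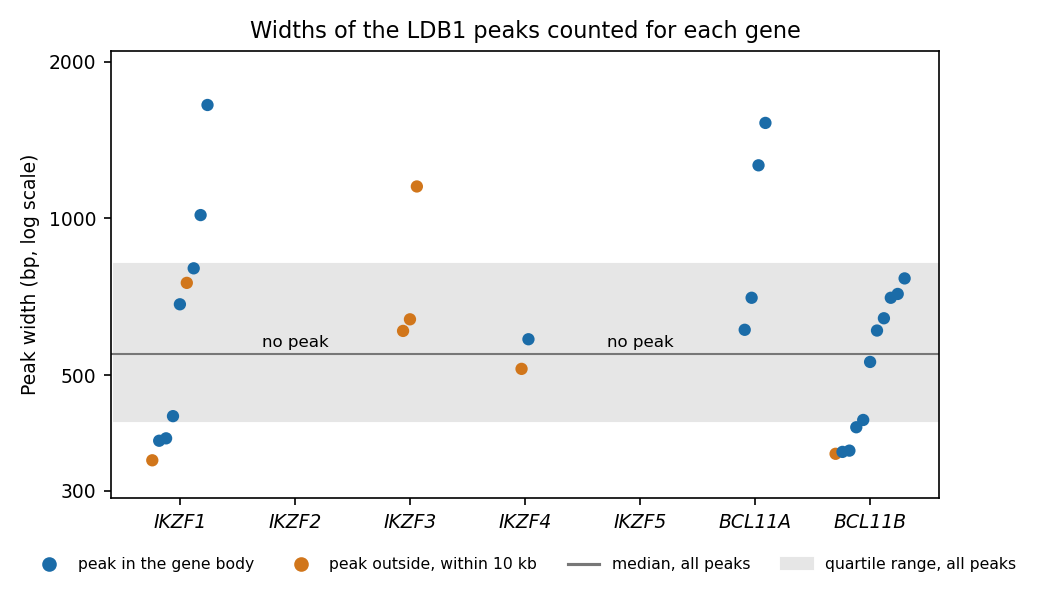
Each point is 1 LDB1 peak counted for the gene named on the x axis, with its width in bp on a log scale. The line and the grey band are the median (550 bp) and quartiles (408 and 816 bp) of all peaks, and 5 of the 29 points lie above the band, at IKZF1, IKZF3 and BCL11A.

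Ikaros and BCL11 proteins act with chromatin complexes, and 72 genes of such partners and known targets were counted in the same way. Peaks were counted for 56 (77.8%), beside 70.1% of all protein-coding genes, and at an end of 31 (43.1%), beside 37.6%. The median was 2 peaks per gene.

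The NuRD complex is a nucleosome remodeller and deacetylase that Ikaros proteins and BCL11A recruit. A peak was counted for 15 of 15 listed genes (exact 95% interval 78.2 to 100%), beside 70.1% of all protein-coding genes. The median was 1 peak, as over all genes, and 6 of 15 (40.0%) had one at an end, beside 37.6%. CHD5, a remodeller subunit best known from neurons, had 15 peaks, MTA3 had 9 and MBD3 had 8. CHD4, the remodeller subunit of most blood cells, and the deacetylase genes HDAC1 and HDAC2 had 1 each, outside the gene body. MTA2, GATAD2B and RBBP7 also had their only peak outside the body. The other listed NuRD genes had a peak in the body, as did 54.5% of all protein-coding genes.

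The BAF complex, a remodeller that counts BCL11A and BCL11B among its subunits, had a peak at 13 of 20 genes (65.0%, 40.8 to 84.6%), with a median of 2. SMARCA4, one of its ATPase genes, had 10 peaks, SMARCD3 had 7 and BRD9 had 6. No peak lay within 10 kb of SMARCA2, SMARCB1, SMARCE1, ARID2, ACTL6A, SS18 or BCL7C. Of 13 other corepressor genes 11 had a peak (84.6%, 54.6 to 98.1%), with a median of 1. Both shares stand beside 70.1% of all protein-coding genes, whose median was 1 peak. CTBP1 and CTBP2, which encode CtBP corepressors, had 12 and 11 peaks, while SIRT1 and SUZ12 had none.

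The cereblon ubiquitin ligase is the target of thalidomide-type drugs, which make it destroy Ikaros and Aiolos. Of its 5 genes CUL4A had 9 peaks and DDB1 had 8, all of the latter outside the gene body, and CRBN, CUL4B and RBX1 had none. Of 19 lymphoid genes known as Ikaros targets 15 had a peak (78.9%, 54.4 to 93.9%), with a median of 2. At an end 11 had one (57.9%). An end peak was counted for 9 of 20 BAF genes (45.0%), 3 of 13 other corepressor genes (23.1%) and 2 of 5 ligase genes (40.0%). DTX1, a Notch pathway gene, had 9 peaks, CD79A, of the B cell receptor, had 8 and HES1, a Notch target, had 7. In the gene body these had 7, 3 and 1. DNTT, RAG2, IL7R and BLNK had none. Of all protein-coding genes, 70.1% had a peak and 37.6% had one at an end. The shares of the lists describe 5 to 20 genes each in 1 library, and none was tested against the rest.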

How the data were processed

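Peaks came from 1 LDB1 CUT&Tag library of untreated NB4 cells. The submitters' processing notes name hg38, the aligner Bowtie2 2.4.1 and the peak caller MACS2 2.0.10. Its settings, cut-offs, duplicate handling and any IgG control were not given in the sources used here. Per the file headers, the deposited table gives the position and width of each peak in bp, with no score, signal or depth, so background in open chromatin that Tn5 cuts may be among the peaks. Of 53742 peaks, 52765 on chromosomes 1 to 22 and X were used.

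Genes were taken from RefSeq (GRCh38.p14), and strands and starts from its promoter table. Peaks were assigned by midpoint with Python 3.11.15, numpy 2.4.6 and pandas 2.3.3, and counts were checked on simulated peaks. Intervals are exact (Clopper-Pearson, scipy 1.17.1). No IgG peaks were available here and each antibody had a single library, so samples were not tested against each other. The text holds no p-values. The members and lists were chosen with earlier results of these data known. The genes named were the 7 members, genes within 50 kb that share their peaks, and of each partner list the 3 with the most peaks and those with none. A gene that this rule allowed is not reported here. CHD4, HDAC1, HDAC2, MTA2, GATAD2B and RBBP7 were named after their values were seen. The length range of 100 to 160 kb and the flanks of 500 kb were set after seeing the data. Alternatives changed 1 choice at a time.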

Additional observations from a re-analysis of the deposited data

How the results depend on the processing

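The number of genes with a peak was 4 with the gene body only and 5 at 50 kb, with any base of the peak in the window, with peaks up to 1 kb apart joined and when only the widest 50% were used, where 52.5% of all protein-coding genes had a peak. It was 3 when only the widest 25% were used, where the share of all genes was 34.9%. The 29 peaks counted became 50 at 50 kb, 18 for the widest 50% and 5 for the widest 25%, settings that by construction take in more sequence or fewer peaks. The number of genes with a peak at an outer end was 1 at 500 and 2500 bp, 0 with the widest 50%, 0 with the widest 25% and 2 when any listed start was used in place of the ends, which added BCL11A. Of the 72 partner genes 56 had a peak by the main rule, 65 at 50 kb and 45 with the gene body only. With the widest 50% of peaks 43 had one, and with the widest 25% 28 did. In the same order, the shares of all protein-coding genes were 70.1, 86.1, 54.5, 52.5 and 34.9%. BCL11B, with 11 peaks, had 5 and 0 at the widest 50% and 25%, and IKZF1, with 9, had 5 and 2. IKZF2 and IKZF5 stayed at 0 under all 6 alternatives. This was fixed by the distance of their nearest peaks, at least 124 kb, and is no separate check. Depth is unknown, and a peak missed at this depth cannot be told from no binding. No paired analysis was possible because each antibody has 1 library.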
